A study of Mus musculus with 8 samples.

Results

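The genes described here are the basal layer keratins Krt5, Krt14 and Krt15, the transcription factor gene Trp63, which encodes p63, and the genes of 3 factors known to act beside p63 in keratinocytes, Tfap2a, Tfap2c and Klf5. They were taken by symbol from the deposited tables, by a rule that uses no measured value, although the list was drawn up with earlier results of these data known. They make 7 of 24538 gene rows. All 7 passed the filter on low counts, as did 15151 genes in all. RNA had been sequenced from 8 libraries of sorted skin cells of newborn mice (postnatal day 0), and every animal carried the Atoh1-GFP allele, so that the IFE cells come from the same genotype as the Merkel cells. The 4 groups, of 2 libraries each, were Merkel cells of the paw, set against IFE cells of the paw, and Merkel cells of back skin, set against IFE cells of back skin. Skin had been dissociated with collagenase and trypsin, and the Merkel gate kept cells with GFP and EPCAM but without SCA1, while the IFE gate kept cells with EPCAM and SCA1 but without GFP. IFE is the submitters' own label for the epidermal cells. A small amount of total RNA had been amplified before library construction, and nothing in the labels ties the 2 libraries of a group to different animals. The p-values therefore rest on the spread between these samples alone, which may be technical.

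In stratified skin, keratinocytes of the basal layer hold filaments built from keratin 5 paired with keratin 14, while keratin 15 is a further type I partner found in basal cells and in the hair follicle. The transcription factor p63 establishes and maintains the stratified epithelial state and binds near the keratin genes, and AP-2 factors (AP-2 alpha from Tfap2a, AP-2 gamma from Tfap2c) and the zinc finger factor KLF5 occupy many of the same regulatory regions. Merkel cells are touch receptors that arise from the epidermal lineage, depend on ATOH1, and hold simple epithelial keratins such as keratins 8, 18 and 20 in place of the basal pair.

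Positions are given on GRCm38 (mm10) from the GENCODE vM21 annotation. Krt5 lies on the minus strand of chromosome 15 from 101707070 to 101712898. Its partners Krt14 (100203162 to 100207548) and Krt15 (100131758 to 100135928) lie on the minus strand of chromosome 11 in the type I keratin cluster. Trp63 spans 25683763 to 25892102 on the plus strand of chromosome 16, and Klf5 spans 99298691 to 99315036 on the plus strand of chromosome 14. Tfap2a lies on the minus strand of chromosome 13 from 40715302 to 40738376, and Tfap2c on the plus strand of chromosome 2 from 172549593 to 172558622. Of the exonic bases of Tfap2a, 14.6% also belong to the annotated genes Gm26688, Gm47061 and Gm47067, and for Krt5 the share is 5.87%, with Gm44323. The other members share none. With no strand setting stated, reads over such bases cannot be assigned to 1 of the genes with certainty.

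Keratin genes are close copies of each other, so reads could in principle be split between them. Krt14 shares a run of 134 identical coding bases with the stress keratin gene Krt16, at positions 306 to 439 of the Krt14 coding sequence, counted from the A of the start codon. The run is shown in capitals because it is a place where a count of these genes depends on read length, and the short lower-case flanks are those of Krt14, read from the GENCODE transcripts.
Krt14 and Krt16: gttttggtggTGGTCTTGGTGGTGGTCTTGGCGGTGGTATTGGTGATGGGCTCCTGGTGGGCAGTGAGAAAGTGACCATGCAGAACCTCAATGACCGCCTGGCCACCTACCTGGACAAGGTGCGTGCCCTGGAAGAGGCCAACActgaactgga
Of all windows of 50 bases along the transcript, 8.52% of those of Krt5 and 14.4% of those of Krt14 also occur in another transcript, against 0.666% for Krt15, 0.121% for Klf5 and 0 for Trp63, Tfap2a and Tfap2c. At 150 bases, the read length given in the labels, no window of these transcripts occurred in a transcript of another gene. For each gene only the transcript with the longest coding sequence was searched, on its sense strand.

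Promoter sequence was found in the RefSeq table (GRCm38.p6) for 3 of the 7 members, in 4 entries. Those of Krt5 and of a downstream start of Tfap2a are shown, each over the 250 bases before the start site on the minus strand, because the keratin and the AP-2 factor lay at opposite ends of the results below. In capitals are matches to the KLF motif CCNCNCCC, which was searched on both strands, as were the AP-2 motif GCCNNNGGC, the TATA box TATAAA, the p53-family half-site, and a closely spaced pair of p53-family cores (the inner letters of 2 adjoining half-sites).
Krt5, chr15:101712906-101713155: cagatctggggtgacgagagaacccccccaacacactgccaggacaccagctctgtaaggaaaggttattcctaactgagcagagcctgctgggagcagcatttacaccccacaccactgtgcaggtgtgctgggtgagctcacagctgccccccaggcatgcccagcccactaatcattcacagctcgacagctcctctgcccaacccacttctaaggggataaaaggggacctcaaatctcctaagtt
Tfap2a, chr13:40733796-40734045: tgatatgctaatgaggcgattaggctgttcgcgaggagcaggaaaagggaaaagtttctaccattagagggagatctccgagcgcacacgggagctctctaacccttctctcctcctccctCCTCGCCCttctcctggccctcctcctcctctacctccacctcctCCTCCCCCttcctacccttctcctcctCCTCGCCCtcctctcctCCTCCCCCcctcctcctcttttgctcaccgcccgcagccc
The Tfap2a window shown held the KLF motif at 4 places, starting 129, 84, 57 and 40 bases before the start site, and none of the others. The Krt5 window held 1 p53-family half-site, starting 95 bases before the start site, and none of the others. The entries not shown, for Krt14 and for a start of Tfap2a further upstream, held none of these motifs. The KLF motif occurred in 45.9% of 32851 promoter windows of this length, the AP-2 motif in 13.7%, the TATA box in 12.4% the p53-family half-site in 7.13% and the pair of p53-family cores in 5.84%. Overlap between motifs was not removed, and a match describes letters only.

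Total counts ran from 11139306 to 26195076 per library, with 14002 to 15869 genes detected. The 15 Merkel cell markers summed to 4868 and 6855 CPM (TMM-scaled counts relative to library size) in paw Merkel libraries, against 21.6 and 26.1 CPM in paw IFE libraries, and to 7813 and 7718 CPM in back Merkel libraries, against 16.1 and 16.8 CPM in back IFE libraries. All 15 were higher in Merkel cells. Atoh1, whose reporter set the gate, had 304 and 284 CPM in paw Merkel libraries, against 0.0815 and 0.148 CPM in paw IFE libraries, and 214 and 178 CPM in back Merkel libraries, against 0.16 and 0.46 CPM in back IFE libraries. A pair of libraries stood apart from their labels or partners. In back IFE library 2, the levels of 28 Hox genes, which mark body position, correlated at 0.753 and 0.883 with paw IFE libraries 1 and 2 and at -0.0752 with back IFE library 1, so it is called here the library labelled back IFE 2. In paw Merkel library 1, suprabasal keratinocyte markers summed to 6287 CPM, against 547 CPM in paw Merkel library 2. The counts of called genes below are therefore also given without these libraries.

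Messenger RNA of the basal keratin pair was far lower in Merkel cells than in IFE cells at both sites. Krt5 stood at 1358 and 576 CPM in the 2 paw Merkel libraries, against 16517 and 13892 CPM in paw IFE libraries. In back skin it stood at 419 and 546 CPM in Merkel libraries, against 26604 and 15679 CPM in IFE libraries. Every Merkel library lay below every IFE library, and the highest Merkel value was that of paw Merkel library 1. Krt5 fell by 3.97 on the log2 scale in paw Merkel cells (95% interval -5.07 to -2.88, adjusted p = 0.000668, edgeR quasi-likelihood F test, Benjamini-Hochberg adjusted over all genes, as for every adjusted p of a fold change below). In back Merkel cells it fell by 5.45 (-6.63 to -4.28, adjusted p = 7.74e-05). In bulk RNA, fewer cells that make a transcript and less of it per cell cannot be told apart, and this holds for every member.

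Krt14, whose product is the type I partner of keratin 5, had 424 and 196 CPM in paw Merkel libraries, against 2989 and 2978 CPM in paw IFE libraries. Back Merkel libraries had 106 and 167 CPM, against 6035 and 4379 CPM in back IFE libraries. The groups were again fully apart. Krt14 fell by 3.27 in paw (-4.23 to -2.30, adjusted p = 0.00102) and by 5.25 in back Merkel cells (-6.31 to -4.19, adjusted p = 5.32e-05).

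Krt15 had 473 and 180.0 CPM in paw Merkel libraries, against 2288 and 2259 CPM in paw IFE libraries. The back Merkel libraries held 114 and 145 CPM of Krt15, against 2826 and 4322 CPM in back IFE libraries. Its order over the libraries matched that of Krt14 in Merkel cells of the paw, where library 1 was the higher, but in back IFE cells the library labelled back IFE 2 was the higher for Krt15 and the lower for Krt5 and Krt14. Krt15 fell by 2.80 in paw (-3.81 to -1.79, adjusted p = 0.00401) and by 4.79 in back Merkel cells (-5.89 to -3.68, adjusted p = 0.00012).

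**Figure D1:**
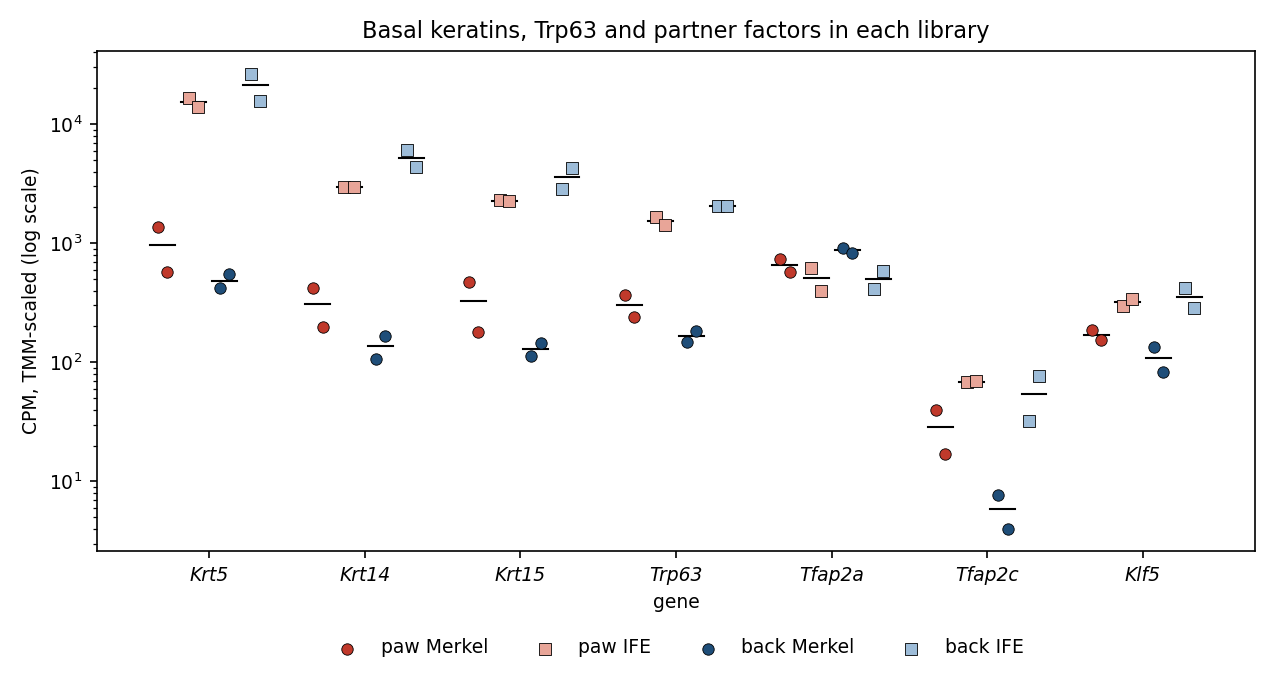
CPM after TMM scaling (log scale) of the 7 genes in each of 8 libraries; circles are Merkel libraries, squares IFE libraries, and short lines the mean of 2 libraries. The keratins and Trp63 are lower in every Merkel library than in any IFE library, whereas Tfap2a lies between 401 and 916 CPM in all of them.

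Trp63 fell less than the keratins by estimate. It stood at 366 and 238 CPM in paw Merkel libraries, against 1656 and 1419 CPM in paw IFE libraries. In back skin the values were 149 and 182 CPM in Merkel libraries, against 2067 and 2066 CPM in IFE libraries. No Merkel library reached the lowest IFE library. Trp63 fell by 2.35 in paw (-3.08 to -1.62, adjusted p = 0.00147) and by 3.65 in back Merkel cells (-4.42 to -2.88, adjusted p = 7.32e-05). Whether the transcripts are of the long or the N-terminally truncated p63 isoforms cannot be read from gene-level counts.

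The AP-2 genes went different ways. Tfap2a had 732 and 578 CPM in paw Merkel libraries, against 618 and 401 CPM in paw IFE libraries, so the groups overlapped. In back skin it had 916 and 835 CPM in Merkel libraries, against 416 and 583 CPM in IFE libraries, without overlap. Its log2 fold change was 0.36 in paw (-0.36 to 1.09, adjusted p = 0.585) and 0.81 in back Merkel cells (0.08 to 1.54, adjusted p = 0.126), neither past the threshold of 0.05. Both intervals lie above -0.37, so a decrease of the size seen for the keratins is outside them. With limma on log2(FPKM + 1), the back value was 1.20 with an adjusted p of 0.0309.

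Tfap2c was the least abundant member, in FPKM as well. It had 40.1 and 16.9 CPM in paw Merkel libraries, against 68.8 and 69.1 CPM in paw IFE libraries, and the difference of -1.27 (-2.65 to 0.10) did not pass the test (adjusted p = 0.276). Back Merkel libraries had 7.68 and 4.01 CPM, against 32.1 and 76.1 CPM in back IFE libraries. There Tfap2c fell by 3.21 (-4.69 to -1.72, adjusted p = 0.00863). Without back Merkel library 2 that call was lost (adjusted p = 0.066).

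Klf5 had 187 and 155 CPM in paw Merkel libraries, against 295 and 343 CPM in paw IFE libraries. Its levels were 134 and 83.0 CPM in back Merkel libraries, against 421 and 285 CPM in back IFE libraries. The libraries did not overlap at either site, yet the paw difference of -0.90 (-1.67 to -0.13) did not pass the adjusted test (adjusted p = 0.170). In back Merkel cells Klf5 fell by 1.70 (-2.49 to -0.91, adjusted p = 0.00868). This call too was lost when back Merkel library 2 (adjusted p = 0.0937) or back IFE library 1 (adjusted p = 0.0544) was left out.

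Counted over the list, 4 of the 7 members were lower and none higher in paw Merkel against paw IFE cells, where 1.93% of all genes tested were called lower, 4.28% higher and 6.21% either way. In back skin 6 of 7 were lower, against 7.45% of all genes called lower, 7.99% higher and 15.4% either way. With both sites pooled, 6 of 7 were lower, against 11.3% of genes called lower, 12.5% higher and 23.9% either way. Libraries of the 2 cell types did not overlap for 6 of 7 members in paw, where 53.6% of all genes did not, for 7 of 7 in back, where 61.9% did not, and for 5 of 7 over both sites, where 27.7% did not. The median log2 fold change over the members was -2.35 in paw, -3.65 in back and -3.0 pooled, while that of all genes tested was -0.04, -0.06 and -0.09. In each of 3 cases, without paw Merkel library 1, without the library labelled back IFE 2 and without both, 4 members were again lower in paw, 6 in back and 6 pooled, but the share of all genes called lower changed. In paw it was 7.31%, 2.33% and 7.34% in the order of these cases, in back 10.7%, 5.08% and 8.15%, and pooled 15.7%, 8.25% and 13.9%. Pooled over sites, Krt5 fell by 4.71 (SE 0.37, adjusted p = 6.57e-06), Krt14 by 4.26 (SE 0.32, adjusted p = 5.99e-06), Krt15 by 3.79 (SE 0.34, adjusted p = 1.80e-05) and Trp63 by 3.0 (SE 0.24, adjusted p = 8.02e-06). Tfap2c fell by 2.24 (SE 0.46, adjusted p = 0.00481) and Klf5 by 1.30 (SE 0.25, adjusted p = 0.00342). Tfap2a differed by 0.59 (SE 0.23, adjusted p = 0.0949), with a 95% interval from 0.07 to 1.10.

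**Figure D2:**
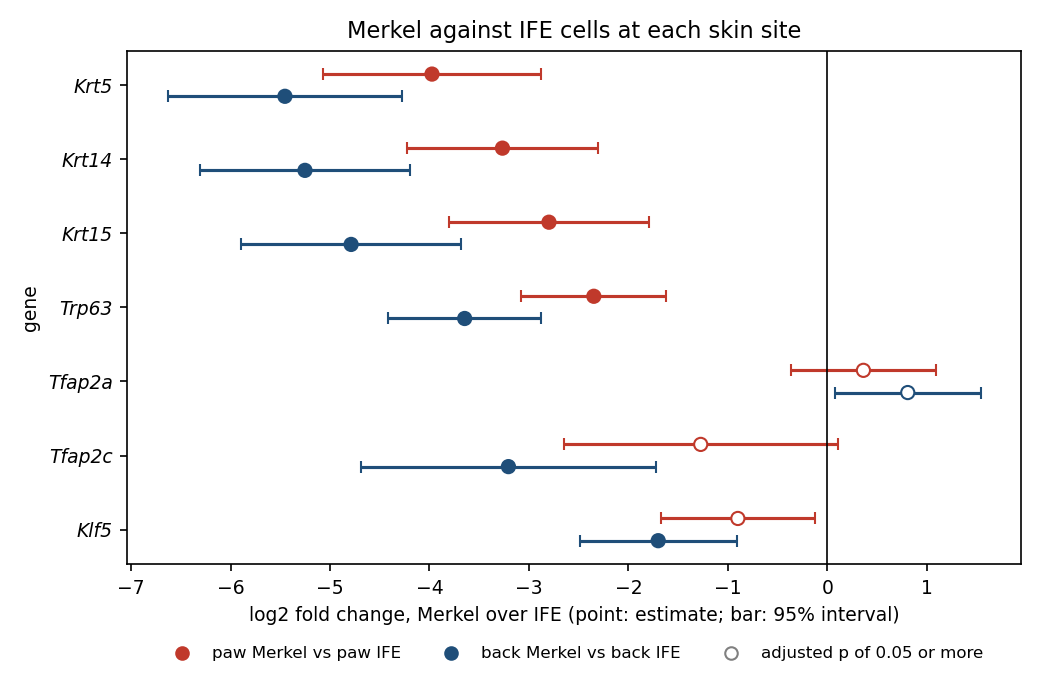
Log2 fold change of each gene in Merkel over IFE cells, in paw (red) and back skin (blue), with 95% intervals from the edgeR fit; open circles have an adjusted p of 0.05 or more. The keratins range from -2.80 to -5.45 and Tfap2a is the sole gene to the right of 0.

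In each of the 6 genes lower in back Merkel cells, the estimate in paw lay nearer to 0, but the difference between sites did not pass the test for any member. The paw change minus the back change was 1.48 for Krt5 (0.10 to 2.86, adjusted p = 0.537), 1.99 for Krt14 (0.73 to 3.25, adjusted p = 0.371) and 1.99 for Krt15 (0.64 to 3.34, adjusted p = 0.391). It was 1.30 for Trp63 (0.31 to 2.28, adjusted p = 0.459), -0.45 for Tfap2a (-1.47 to 0.58, adjusted p = 0.848), 1.93 for Tfap2c (-0.01 to 3.88, adjusted p = 0.553) and 0.80 for Klf5 (-0.29 to 1.89, adjusted p = 0.687). Across all genes, 0 passed this test by edgeR (0.0% called), with 1365 at an unadjusted p under 0.05, and DESeq2 called 273 and limma-trend 0. Without the filter on low counts, Krt14 (adjusted p = 0.00765) and Krt15 (adjusted p = 0.00823) passed, with 305 of 19152 genes called in all. Without paw Merkel library 2, Krt15 passed (adjusted p = 0.0382), and without paw Merkel library 1, the library labelled back IFE 2 or both, no member did, with 3, 41 and 107 genes called in all.

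The sites were also set against each other within a cell type. All 7 members had paw and back Merkel libraries that did not overlap, as did 35.4% of all genes tested, but none passed the test, where 0.185% of all genes were called, 0.178% higher and 0.0066% lower in paw. Tfap2c differed most between paw and back Merkel cells, at 28.5 ± 16.4 CPM in paw and 5.84 ± 2.60 CPM in back (mean ± SD, n = 2 each), a log2 fold change of 2.28 (0.85 to 3.72, adjusted p = 0.238). For the keratins and Trp63 it was between 0.87 (Trp63, 0.17 to 1.57, adjusted p = 0.380) and 1.34 (Krt15, 0.38 to 2.30, adjusted p = 0.310). Klf5 gave 0.66 (-0.12 to 1.43, adjusted p = 0.547) and Tfap2a -0.42 (-1.15 to 0.31, adjusted p = 0.701). DESeq2 called Tfap2c (adjusted p = 0.0237), and without the filter on low counts Krt14, Krt15 and Tfap2c passed (adjusted p = 0.0356, 0.0119 and 0.0263). Over all genes DESeq2 called 512 of 15151, and the fit without the filter 452 of 19152. Without paw Merkel library 2, Krt14 (adjusted p = 0.0411) and Krt15 (adjusted p = 0.0216) passed. With paw Merkel library 1, the library labelled back IFE 2 or both left out, 0 members passed, with 177, 78 and 249 genes called in all.

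Between paw and back IFE cells the members differed by -0.80 (Krt14, -1.69 to 0.08) to 0.35 (Tfap2c, -1.01 to 1.71), and none was called, with adjusted p of 1 for each. Libraries of the 2 sites did not overlap for 3 of 7 members (Krt14, Krt15 and Trp63), as for 40.4% of all genes. Over all genes edgeR called 0 (0.0%), with 643 at an unadjusted p under 0.05, while DESeq2 called 84 and limma-trend 0. The spread between the 2 libraries was wider in back than in paw IFE cells for 5 of the members, but not for Trp63 (SD 167 CPM in paw and 0.164 CPM in back) or Tfap2a (SD 154 CPM in paw and 118 CPM in back). Krt5 averaged 15204 ± 1856 CPM in paw IFE and 21141 ± 7725 CPM in back IFE libraries (SD, n = 2 each). Krt14 averaged 2984 ± 7.52 CPM in paw IFE and 5207 ± 1171 CPM in back IFE libraries. One of the back libraries is the one whose Hox genes went against its label. Its part in this comparison can be seen from the count without it, which is 67 genes over the whole table and still 0 members.

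Levels of different genes can be compared only per length, for which the deposited FPKM values were used. In all 4 IFE libraries the order began with Krt5, Krt14 and Krt15 and ended with Tfap2a and Tfap2c. Paw IFE libraries averaged 10368 ± 596 FPKM of Krt5, 3906 ± 419 of Krt14 and 1914 ± 84.8 of Krt15, then 367 ± 62.5 of Trp63, 304 ± 37.2 of Klf5, 155 ± 45.7 of Tfap2a and 28.0 ± 1.54 of Tfap2c. Trp63 and Klf5 swapped places between the 2 paw IFE libraries and do not differ beyond their spread. In Merkel cells Tfap2a moved up the order. Back Merkel libraries averaged 391 ± 80.7 FPKM of Krt5, 308 ± 17.9 of Tfap2a, 201 ± 50.1 of Krt14, 131 ± 27.6 of Krt15, 112 ± 24.9 of Klf5, 45.9 ± 17.4 of Trp63 and 2.86 ± 0.962 of Tfap2c, so that Tfap2a stood second in both libraries. Paw Merkel libraries averaged 681 ± 358 FPKM of Krt5, 454 ± 185 of Krt14, 307 ± 151 of Krt15, 212 ± 15.7 of Tfap2a, 176 ± 12.9 of Klf5, 90.3 ± 9.26 of Trp63 and 13.1 ± 5.40 of Tfap2c. Krt15 and Tfap2a changed places between the 2 paw Merkel libraries, as Krt15 and Klf5 did between the 2 back Merkel libraries. The deposited tables differ on the keratin pair: Krt5 relative to Krt14 was 2.27 to 4.27 over the libraries in counts per transcript base and 1.32 to 2.99 in FPKM.

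To set the members against one another, each was also divided by Krt14 within its own library. Relative to Krt14, the regulators stood higher in Merkel cells, whereas the differences of the other keratins were smaller and did not pass the test. Krt14 itself fell by 4.26 pooled over sites, while the median log2 fold change of all genes tested was -0.09. A gene with no change would therefore also stand higher relative to Krt14. A higher ratio shows only that a gene did not fall as far as Krt14. The log2 ratio of Trp63 counts to Krt14 counts was 0.17 ± 0.29 in Merkel and -1.14 ± 0.29 in IFE libraries (SD, n = 4 each), a difference of 1.30 (exact permutation test, two-sided, p = 0.0286, adjusted p over the 6 ratios = 0.0429). For Tfap2a it was 1.94 ± 1.00 in Merkel and -2.98 ± 0.65 in IFE libraries, a difference of 4.93. Klf5 gave -0.55 ± 0.69 in Merkel and -3.56 ± 0.40 in IFE libraries, a difference of 3.01. Tfap2c gave -4.02 ± 0.91 in Merkel and -6.07 ± 1.01 in IFE libraries, a difference of 2.05. These 4 ratios had no overlap between cell types at either site, and each had the same exact p as Trp63, the smallest that 70 assignments allow. How many of all genes would be apart or pass when divided by Krt14 was not computed, so this is no trait of the regulators. The ratio of Krt5 to Krt14 was 1.73 ± 0.18 in Merkel and 2.17 ± 0.26 in IFE libraries, a difference of -0.44 (exact p = 0.0571, adjusted p = 0.0686). That of Krt15 was -0.02 ± 0.18 in Merkel and -0.47 ± 0.45 in IFE libraries, a difference of 0.46 (exact p = 0.0857, adjusted p = 0.0857). For both keratins the Merkel and IFE libraries overlapped over both sites and in back skin, but not in paw, where the difference was -0.73 for Krt5 and 0.41 for Krt15. When labels were permuted within each skin site the smallest possible p was 0.0556, so no ratio could pass in that form. Leaving out paw IFE library 1 or 2 or back IFE library 1 raised the adjusted p of Trp63, Tfap2a and Klf5 to 0.0571 and that of Tfap2c to 0.0857 (exact tests), and leaving out the library labelled back IFE 2 raised that of Tfap2c to 0.0571 and brought that of Krt15 to 0.0429.

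**Figure D3:**
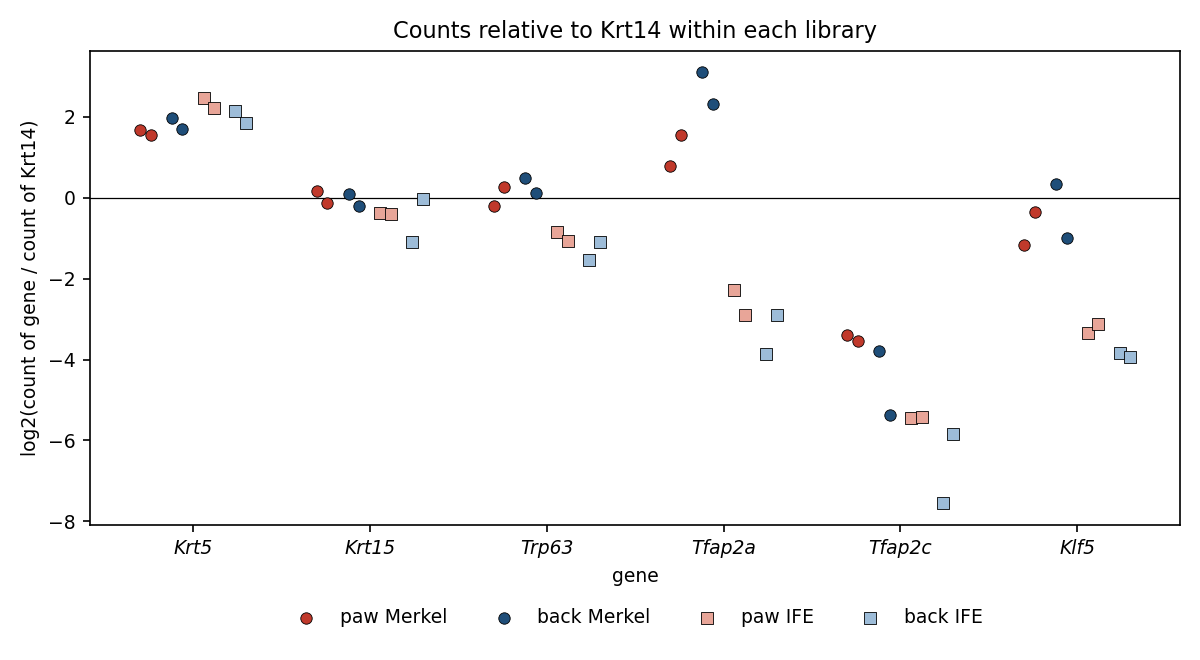
Log2 of each gene's count over the Krt14 count in each library, Merkel libraries (circles) left of IFE libraries (squares). Trp63, Tfap2a, Tfap2c and Klf5 lie higher in all 4 Merkel libraries than in all 4 IFE libraries, by 1.30 to 4.93 on average, while Krt5 and Krt15 overlap in back skin and over both sites but not in paw. Krt14 itself fell by 4.26 pooled over sites, so a gene with no change would lie higher too.

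To put a size on the keratinocyte RNA that Merkel libraries hold, each level was expressed as a percent of the mean IFE level of the same site. Krt5 was the lowest member in every Merkel library, at 8.93% and 3.79% in paw and at 1.98% and 2.58% in back. Krt14 stood at 14.2% and 6.58% in paw and at 2.05% and 3.20% in back, and Krt15 at 20.8% and 7.92% in paw and at 3.19% and 4.05% in back. Paw library 1 was the highest for each keratin, and the back libraries were the lowest. Trp63 stood at 23.8% and 15.5% in paw and at 7.19% and 8.78% in back Merkel libraries. Klf5 followed at 58.7% and 48.6% in paw and at 38.0% and 23.5% in back, and Tfap2c at 58.2% and 24.5% in paw and at 14.2% and 7.40% in back. The Tfap2c mean in back, 10.8%, became 18.2% when the library labelled back IFE 2 was left out. The Krt5 mean in back, 2.28%, became 3.08% without back IFE library 1 and 1.81% without the library labelled back IFE 2. For Krt15 the back mean of 3.62% became 2.99% and 4.58% in the same cases. In FPKM the Trp63 mean in back, 7.99%, became 10.6%. Tfap2a exceeded the mean IFE level of its site in each Merkel library, at 144% and 114% in paw and at 183% and 167% in back. The Tfap2a mean in paw, 129%, was 106% against library 1 of paw IFE alone and 164% against library 2 alone. Paw Merkel library 2, at 578 CPM, lay below library 1 of paw IFE, at 618 CPM. In back the Tfap2a mean, 175%, was 210% against back IFE library 1 alone. It was 150% against the library labelled back IFE 2 alone, and 227% in FPKM. Among 7684 genes with at least 10 CPM in IFE cells, the median was 80.4% to 89.5% per library.

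If all Krt5 counts in a Merkel library came from cells like the average IFE cell of that site, such cells would have given 1.98% to 8.93% of the RNA in the library. The same share of IFE RNA amounts to 24.5% to 37.5% of the Trp63 level measured in the 4 Merkel libraries. It amounts to 42.9% to 63.8% of the Krt15 level and 57.5% to 96.8% of the Krt14 level. For Klf5 it is 5.21% to 15.2%, for Tfap2c 13.9% to 34.9%, and for Tfap2a 1.08% to 6.21%. This share rests on Krt5 alone, and other genes gave other shares. Cd74, an immune marker, stood at 15.2% and 2.54% of IFE in paw and at 0.0281% and 0.0360% in back Merkel libraries. The suprabasal keratin gene Krt2 stood at 0.10% in paw Merkel library 2 and at 0.895% and 0.46% in back Merkel libraries. In paw Merkel library 1 the lowest of 11 suprabasal markers, Krt2 among them, stood at 27.9%, so Krt2 lay above the Krt5 share there. Where the transcripts came from was not tested: transcripts of Merkel cells themselves and RNA of keratinocytes cannot be told apart in these counts.

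Suprabasal genes did not follow the same shares. Krt1 and Krt10, the keratin pair of the layers above the basal one, stood at 62.5% and 62.0% of the IFE level in paw Merkel library 1, but at 5.91% and 3.46% in paw Merkel library 2. In back Merkel libraries 1 and 2, Krt1 stood at 29.9% and 20.1% and Krt10 at 32.9% and 13.8%. Over the 11 suprabasal markers with at least 10 CPM in IFE cells, the median was 88.3% and 6.72% in paw and 29.9% and 22.7% in back. Krt5 was below Krt1 in each library as a percent of IFE, and the gap ranged widely between libraries. Krt10 lay below Krt5 (3.79%) in paw Merkel library 2. The lowest of the 11 markers was Krt2 in paw Merkel library 2 (0.10%) and in back Merkel libraries 1 and 2 (0.895% and 0.46%). Each of these values was below that of Krt5 in the same library. In paw Merkel library 1 the lowest was Dsg1a, at 27.9%, above Krt5. Of 15 suprabasal markers tested, 4 were lower in Merkel cells pooled over sites (Dsg1a, Tgm3, Krtdap and Krt1) and none higher, with a median of -1.24. Of all genes tested, 11.3% were called lower pooled over sites and 12.5% higher. Without paw Merkel library 1 the count was 11 of 15, with a median of -2.82, without the library labelled back IFE 2 it was 5, and without both it was 10. The part of these cells in the values of the 7 members was not tested.

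**Figure D4:**
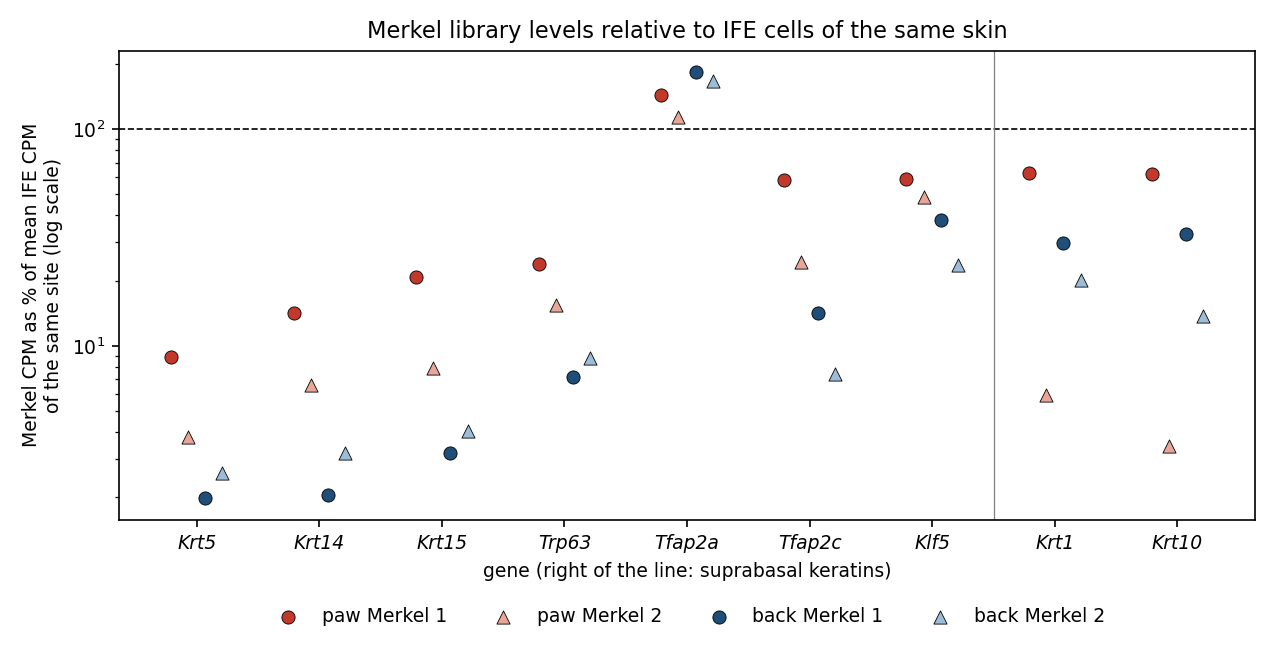
CPM in each of 4 Merkel libraries as a percent of the mean IFE CPM of the same site (log scale), for the 7 genes and, right of the line, the suprabasal keratins Krt1 and Krt10; the dashed line is 100%. Krt5 is lowest among the 7 in each library (1.98% to 8.93%), Tfap2a lies above 100%, and the suprabasal pair splits the paw Merkel libraries.

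Genes known as p63 targets in keratinocytes were mostly lower in Merkel cells as well. Of 25 listed, 19 were lower and none higher pooled over sites, with a median log2 fold change of -1.92 against -0.09 for all genes. Of all genes tested, 11.3% were called lower pooled, 1.93% in paw and 7.45% in back. In paw the counts of targets were 11 lower and 0 higher, with a median of -1.59, and in back 17 lower and 1 higher, with a median of -1.81. The 1 higher in back was Cdh3, named after its value was seen, which encodes P-cadherin (1.47, adjusted p = 0.0455), and no target was called higher in back without the library labelled back IFE 2 or without it and paw Merkel library 1. Among the 4 with the smallest adjusted p were 3 adhesion genes: Col17a1, a hemidesmosomal collagen, fell by 3.26 (adjusted p = 2.51e-05), Itgb4, the beta 4 integrin of the same structure, by 3.14 (adjusted p = 2.05e-05), and Fras1, a basement membrane protein gene, by 2.77 (adjusted p = 2.16e-05). Fgfr2, a receptor for fibroblast growth factors, fell by 3.06 (adjusted p = 1.57e-05). It had 380.4 and 558 CPM in paw Merkel libraries, against 2337 and 2007 CPM in paw IFE libraries, and 129 and 219 CPM in back Merkel libraries, against 2316 and 2883 CPM in back IFE libraries. Relative to IFE cells, the median target stood at 42.7% and 26.1% in paw and at 18.4% and 25.5% in back Merkel libraries. The pooled count of lower targets was 20 without paw Merkel library 1, without the library labelled back IFE 2 it was 19, and without both it was 20. Lower targets in the same 3 cases were 16, 12 and 16 in paw and 18, 12 and 16 in back.

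Among 25 other epidermal transcription factors and cofactors, 12 were lower and 1 higher in Merkel cells pooled over sites, with a median of -1.31. Of all genes tested, 11.3% were called lower and 12.5% higher. Yap1 and Wwtr1, the transcriptional coactivators YAP and TAZ, fell by 2.66 (adjusted p = 1.80e-05) and 2.53 (adjusted p = 0.000167). Grhl2, a grainyhead factor of epithelial junctions, fell by 2.54 (adjusted p = 4.76e-05), and Fosl2, an AP-1 subunit, by 1.31 (adjusted p = 0.00264). Tead1, a DNA-binding partner of YAP and TAZ, was the 1 that rose (0.97, adjusted p = 0.0109). It had 480.0 and 623 CPM in paw Merkel libraries, against 211 and 162 CPM in paw IFE libraries, and 199 and 278 CPM in back Merkel libraries, against 195 and 175 CPM in back IFE libraries. In paw 4 of these factors were lower and 1 higher, where 1.93% of all genes were called lower and 4.28% higher. In back 5 were lower and 1 higher, against 7.45% and 7.99% of all genes. The gene called higher at a single site need not be Tead1, whose back levels in Merkel and IFE libraries lay close. The pooled count of lower genes was 15 without paw Merkel library 1, 11 without the library labelled back IFE 2 and 15 without both, with 1 higher in each. The counts by site moved more, to 12, 4 and 12 lower in paw and to 12, 5 and 10 lower in back in the same 3 cases. In these, 1 was higher each time, except in back without the library labelled back IFE 2, where none was.

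Of 17 relatives of the members tested in the p53, AP-2 and KLF families, 6 were higher and 1 lower in Merkel cells pooled over sites, and 10 did not pass the test, with a median of 0.63. Klf7, a KLF factor best known from neurons, rose by 3.43 (adjusted p = 6.19e-06), with 736 and 1313 CPM in paw Merkel libraries, against 109 and 101 CPM in paw IFE libraries. Back Merkel libraries had 921 and 776 CPM of Klf7, against 62.6 and 78.4 CPM in back IFE libraries. Klf13 rose by 1.53 (adjusted p = 0.00328) and Klf10 by 1.21 (adjusted p = 0.00765). Trp73, which encodes p73, was the 1 that fell, by 4.46 (adjusted p = 0.00129). Tfap2b, the AP-2 beta gene, named after its values were seen, had 4931 and 3824 CPM in paw Merkel libraries, against 1516 and 1276 CPM in paw IFE libraries, and 3551 and 3653 CPM in back Merkel libraries, against 675 and 2320 CPM in back IFE libraries. It rose by 1.46 pooled over sites (adjusted p = 0.0102), while neither site alone passed. In paw 3 relatives were higher and 0 lower, and in back 2 higher and 1 lower. Of all genes tested, 12.5% were called higher and 11.3% lower pooled, 4.28% and 1.93% in paw, and 7.99% and 7.45% in back. The back counts were close to what those shares give for 17 genes. The pooled count was 6 higher and 4 lower without paw Merkel library 1, without the library labelled back IFE 2 it was 5 higher and 2 lower, and without both it was 6 higher and 3 lower. In the same 3 cases paw had 2, 4 and 4 higher with 2, 0 and 2 lower, and back had 2, 3 and 4 higher with 3, 1 and 1 lower.

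Keratin genes close in sequence to the members, stress keratins among them, summed to 285 and 123 CPM in paw Merkel libraries, against 280.3 and 332 CPM in paw IFE libraries, and to 100.2 and 156 CPM in back Merkel libraries, against 739 and 278 CPM in back IFE libraries. Of 9 tested, 3 were lower in Merkel cells pooled over sites, against 11.3% of all genes: Krt16 (-2.71, adjusted p = 0.00305), Krt80 (-1.53, adjusted p = 0.0109) and Krt6a (-3.35, adjusted p = 0.0213). The count was 5 of 9 without paw Merkel library 1, 4 of 9 without the library labelled back IFE 2 and 4 of 8 without both. Krt16 had 4.17 and 7.65 CPM in paw Merkel libraries, against 28.5 and 62.9 CPM in paw IFE libraries, and Krt6a reached at most 83.5 CPM. Krt20, the keratin that marks Merkel cells, ran the other way: 361 and 456 CPM in paw Merkel libraries, against 0.29 and 0.35 CPM in paw IFE libraries, and 844 and 982 CPM in back Merkel libraries, against 0.54 and 0.38 CPM in back IFE libraries. Krt8 had 624 and 240.1 CPM in paw Merkel libraries, against 0.20 and 3.36 CPM in paw IFE libraries.

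Markers of other cell types that the gates could hold were summed over their lists. Immune and Langerhans markers were at 8.63 and 0.738 CPM in paw Merkel libraries, against 61.2 and 75.5 CPM in paw IFE libraries, and at 1.37 and 6.74 CPM in back Merkel libraries, against 1190.5 and 195 CPM in back IFE libraries. Of 8 tested, 7 were lower in Merkel cells pooled over sites. Beside this and the lists that follow, 11.3% of all genes were called lower and 12.5% higher pooled over sites. Fibroblast markers were at 155 and 87.3 CPM in paw Merkel libraries, against 527 and 631 CPM in paw IFE libraries. In back Merkel libraries they were at 200.4 and 158 CPM, against 1584 and 660.0 CPM in back IFE libraries. Pooled over sites 4 of 5 were lower. In paw 1 was lower and none higher, where 1.93% of all genes were called lower. In back 3 were lower and 1 higher, against 7.45% and 7.99% of all genes. Col1a2, named after its values were seen, stood at 104% and 76.7% of IFE in paw and at 651% and 292% in back Merkel libraries. Without paw Merkel library 1, the library labelled back IFE 2 or both, 6, 7 and 6 immune and 4, 4 and 4 fibroblast markers were lower pooled over sites. Back IFE library 1, the highest for both lists, was also the highest of all for Krt5 and Krt14. Hair follicle markers gave 1 higher and 2 lower of 6, also without paw Merkel library 1 or both libraries, and 0 higher and 2 lower without the library labelled back IFE 2. With all 8 libraries no marker of melanocytes (4 tested), endothelium (4 tested) or Schwann cells (5 tested) was called. Over the 12 genes of these 3 lists, edgeR called 0 (2 at an unadjusted p under 0.05), limma-trend 0 and DESeq2 1. Without paw Merkel library 1, and without it and the library labelled back IFE 2, 1 Schwann cell marker was lower pooled over sites and in paw, and no marker of the other 2 lists was called in any of the 3 cases. The part of such cells in the values of the members was not tested.

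Across the 8 libraries, the genes whose log2 CPM most resembled those of Krt5, Krt14, Krt15 and Trp63 included other members. Trp63 was the closest gene to Krt14 (Pearson r = 0.997), and Krt14 the closest to Krt5 (r = 0.996), followed by Cbr2, Trp63, Lipt2 and Efemp1. After Trp63 and Krt5, Krt14 was nearest to Dlk2, Perp and Efemp1. For Krt15 the nearest were Hnrnpf (r = 0.994), Trp63, Perp, H19 and Tmem55a. Trp63 had Krt14, Efna1, Krt5, Krt15 and Mcm4 as its nearest. The nearest genes to Tfap2a were Cldn7 (r = 0.972), Tspan12, Kctd7, Atg4a and Map1s, none of them a member. Tfap2c was nearest to Nxn (r = 0.993), followed by Synj2, C1s1, Cdca7l and Neo1, and Klf5 to Hist1h1d (r = 0.990), followed by Zdhhc1, Cops4, Pgap2 and Mipep. These correlations describe 8 libraries that fall into 2 cell types, whose difference they share, and carry no test.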

How the data were processed

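RNA was measured in 8 libraries, 2 from each of 4 groups taken from the labels. The authors deposited gene counts per library and an FPKM table. The deposited counts are whole numbers per gene, and the deposited FPKM values (24453 rows) are fragments scaled by the authors to transcript length and depth. Per the submitters' processing notes, the build was mm10 and the tools TopHat2 2.0.13, Cufflinks 2.2.1, featureCounts, Subread 1.4.6 and DESeq2 1.6.3. The gene annotation and the strand setting are not given in the sources used here.

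Counts were analysed with edgeR 4.0.16 in R 4.3.3 (filterByExpr by group, TMM, 1 mean per group over all 8 libraries, 4 residual degrees of freedom, glmQLFit and glmQLFTest). P-values were adjusted over 15151 genes by Benjamini-Hochberg, with a threshold of 0.05, in 6 comparisons. The edgeR code was tested on simulated data. Ratios to Krt14 used counts plus 0.5 and exact two-sided permutation tests over all assignments (Python 3.11.15 with numpy 2.4.6). Correlations used log2 CPM with a prior count of 2. No library was a copy of another: in any pair, at most 0.257% of all gene rows had identical counts of 10 or more. Alternatives were RLE size factors, DESeq2 1.42.0, limma-trend and limma 3.58.1 on log2(FPKM + 1) for genes with at least 1 FPKM in 2 libraries, no low-count filter, a replicate block, only the groups compared, and leaving out libraries; leaving out paw Merkel library 1 and back IFE library 2 together was chosen after seeing the data. Amplified reads are not independent molecules, so depth sets only the counting part of the error.

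The members and the 12 gene lists were chosen with earlier results of these data known. Named genes were the members, the genes of the sort and Merkel keratins, up to 4 per list with the smallest adjusted p in the pooled comparison plus 1 in the other direction, and the 5 genes most correlated with each member, without predicted genes.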

Additional observations from a re-analysis of the deposited data

How the results depend on the processing

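The members called in Merkel against IFE cells kept their direction under every alternative run: 6 pooled (7 with limma on FPKM, where Tfap2a passed), 4 in paw and 4 to 6 in back (7 with limma on FPKM). Members called between paw and back Merkel cells were 0 in the analysis reported, 1 with DESeq2, 3 without the low-count filter and 0 to 2 when a library was left out; for the difference between sites, 2 without the filter and 0 to 1. Genes called in paw were 2227 with DESeq2, 1920 without the filter, 537 with the 2 groups alone, 2562 without both doubted libraries and 561 to 2369 without 1 library. Back gave 3963 with DESeq2 and 1307 to 3376 without 1 library. Paw against back Merkel cells gave 512, 13 (limma on FPKM), 452 (no filter), 5 (groups alone), 249 (both out) and 1 to 177. Paw against back IFE cells gave 84, 2, 120, 1 (replicate block), 121 (both out) and 0 to 67. The difference between sites gave 273, 2, 305, 4 (replicate block), 107 (both out), 1 with RLE size factors and 0 to 41. With the replicate block the counts were otherwise 3646 pooled, 1144 in paw, 2520 in back and 41 between Merkel sites, and no member changed its call. Same-numbered libraries share only a number: their deviations from the group means correlated at -0.0427 to 0.0845.

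Permuted within sites, the ratios to Krt14 that passed (Trp63 1.30, Tfap2a 4.93, Tfap2c 2.05, Klf5 3.01) had an adjusted p of 0.0833 in each exact test, which could not pass at this number of libraries. Without both doubted libraries they were 1.45, 5.34, 1.91 and 3.10 (exact adjusted p = 0.10, the smallest that 3 against 3 libraries allow), and without 1 library 1.17 to 1.43, 4.54 to 5.31, 1.55 to 2.49 and 2.72 to 3.22. Krt15 was 0.53 in FPKM (exact adjusted p = 0.0343) and 0.25 to 0.61 without 1 library. The median percent of IFE over the members, 23.8 and 15.5 in paw and 7.19 and 7.40 in back Merkel libraries, became 22.8 in paw library 2 and 7.79 and 9.95 in back with FPKM, 6.70 in back library 2 with total counts, and 5.26 to 8.78 there without 1 back IFE library. Signs reversed between paw and back IFE cells, where no member passed: Tfap2a was -0.00195 with the replicate block and -0.32 to 0.31 without 1 library, Tfap2c -0.14 to 1.10 and Klf5 -0.40 to 0.16, each turning without back IFE library 1 and Tfap2a also without paw IFE library 1. The cause was not tested. With 2 libraries a group, the intervals limit what can be told between sites.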
